A study of Mus musculus with 52 samples.

Results

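Monomethylation of lysine 4 of histone H3 (H3K4me1) was compared between mouse embryonic fibroblasts with intact and with excised MLL2, the H3K4 methyltransferase encoded by Kmt2d. The members are the 6 H3K4me1 chromatin immunoprecipitation sequencing (ChIP-seq) libraries of the series, 3 from F/F cells (NGS-6277, NGS-6285 and NGS-6293, called F/F replicates 1 to 3) and 3 from FC/FC cells (NGS-6281, NGS-6289 and NGS-6297, called FC/FC replicates 1 to 3), of 52 samples in all. F/F cells carry loxP sites in both Kmt2d alleles and were sampled at 0 h of tamoxifen. FC/FC cells are the same immortalized fibroblasts after 24 h of hydroxy-tamoxifen, which activates Cre and excises exons 3 to 5, and after further days of growth. Genotype and tamoxifen treatment therefore cannot be told apart in these libraries. The cells are a line immortalized in culture, and both genotypes derive from cells with the floxed alleles and the Cre. The study describes the replicates as independent without naming which F/F library belongs with which FC/FC library. Summed over annotated transcripts, the libraries held 26714377 to 38871331 reads. This sum counts a read once for each transcript it lies in and leaves out other reads, so it is not sequencing depth. It was larger in every FC/FC library (31253262 or more) than in every F/F library (30528079 or fewer).

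H3K4me1 is laid down mainly by MLL2 and its close relative MLL3 and is best known as the mark of enhancers, the regulatory elements that lie away from gene starts. At active promoters H3K4me1 typically flanks the start site, where trimethylation (H3K4me3) takes its place, and dimethylation (H3K4me2) lies between these marks and also covers active enhancers. MLL2 and MLL3 can act in part in place of each other, and the amount of H3K4me1 lost without MLL2 alone differs between cell types. In fibroblasts, enhancers are known to be rich in sites for AP-1 (TGANTCA, where N is any base), TEAD (GGAATG) and RUNX (TGTGGT) factors, beside E-boxes (CAGCTG) bound by basic helix-loop-helix factors. The question for this mark was where along the genome its peaks and its level over genes differed after excision of MLL2.

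Overlapping peaks of the 6 libraries were merged into 114238 regions, and a region was called lost if it had a peak in all 3 F/F libraries and no FC/FC library. It was called gained in the reverse case and constant with a peak in all 6. Below are 300-base windows at the centre of high-scoring regions of 1 genotype, shown because they are the clearest examples of sites where the peak disappeared or appeared. They were read from the RefSeq GRCm38.p6 genome (build mm10, plus strand), and capitals mark matches on either strand to the motifs above. The first 3 are distal (over 5 kb from any start site) and lost, the next is distal and gained, and the last lies near a start site and was gained.
Pgf, lost, intergenic, chr12:85185946-85186245: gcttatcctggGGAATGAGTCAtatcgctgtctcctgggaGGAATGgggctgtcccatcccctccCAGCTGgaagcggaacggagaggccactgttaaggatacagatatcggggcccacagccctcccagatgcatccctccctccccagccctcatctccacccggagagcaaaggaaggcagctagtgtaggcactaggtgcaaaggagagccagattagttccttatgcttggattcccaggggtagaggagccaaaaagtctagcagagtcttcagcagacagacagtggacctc
Itga11, lost, intron, chr9:62691559-62691858: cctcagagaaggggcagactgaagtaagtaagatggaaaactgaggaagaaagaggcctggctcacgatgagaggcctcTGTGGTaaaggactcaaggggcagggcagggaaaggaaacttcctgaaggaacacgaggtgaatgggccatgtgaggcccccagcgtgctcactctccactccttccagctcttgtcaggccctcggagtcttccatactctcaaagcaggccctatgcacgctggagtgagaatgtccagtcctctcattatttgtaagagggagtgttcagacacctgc
Nckap5l, lost, intron, chr15:99449791-99450090: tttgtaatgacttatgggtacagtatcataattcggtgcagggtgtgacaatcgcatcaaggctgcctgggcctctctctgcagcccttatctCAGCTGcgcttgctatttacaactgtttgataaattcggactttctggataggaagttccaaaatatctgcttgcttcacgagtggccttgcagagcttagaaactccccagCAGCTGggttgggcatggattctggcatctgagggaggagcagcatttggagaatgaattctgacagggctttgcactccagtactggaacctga
Lpp, gained, intron, chr16:24552919-24553218: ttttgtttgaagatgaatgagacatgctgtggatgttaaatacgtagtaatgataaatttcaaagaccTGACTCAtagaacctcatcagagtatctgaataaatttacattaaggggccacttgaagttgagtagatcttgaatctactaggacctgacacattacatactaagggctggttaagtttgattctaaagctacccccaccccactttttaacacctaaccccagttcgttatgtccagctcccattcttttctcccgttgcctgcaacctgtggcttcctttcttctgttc
Chd1, gained, intron, chr17:15708108-15708407: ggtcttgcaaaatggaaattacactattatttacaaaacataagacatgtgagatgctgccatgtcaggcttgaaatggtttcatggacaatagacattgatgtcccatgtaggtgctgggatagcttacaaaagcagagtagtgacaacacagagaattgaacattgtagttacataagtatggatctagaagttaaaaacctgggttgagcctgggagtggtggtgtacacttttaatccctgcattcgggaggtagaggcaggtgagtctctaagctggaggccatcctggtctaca

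The Pgf region lies, at its nearer edge, 7789 bp from the start site of the gene for placental growth factor. Its window holds 1 AP-1 match that overlaps the first of its 2 TEAD matches, and 1 E-box. It had authors' peak scores (minus 10 times log10 of the p-value, minimum 50) of 181, 305 and 380 in F/F replicates 1, 2 and 3 and no peak in any FC/FC library. The Itga11 window lies in an intron of the gene for the collagen-binding integrin alpha 11. The nearer edge of its region is 13035 bp from the start of that gene. The window holds 1 RUNX match and had F/F scores of 235, 155 and 301. The Nckap5l window has 2 E-box matches and had scores of 184, 196 and 290. All 3 lost windows were richer in G and C (56.7%, 54.0% and 48.3%) than the gained distal window (40.3%). The gained window in an intron of Lpp, a focal adhesion gene, has 1 AP-1 match and FC/FC scores of 134, 206 and 114. The nearer edge of its region is 22809 bp from the nearest start site. None of these 4 distal regions overlapped an H3K4me2 or H3K4me3 peak in any library. The region at Chd1, a chromatin remodeler gene whose product binds H3K4me3, overlapped both marks in all 6 libraries of each and had FC/FC H3K4me1 scores of 125, 75.9 and 441.

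More distal regions were lost than gained, and near start sites the order was the opposite. Of 84063 distal regions, 775 were lost (0.922% of the distal regions) and 272 gained (0.324%), while 39484 (47.0%) were constant. Of 30175 proximal regions (within 5 kb of a start site), 131 were lost (0.434%), 219 gained (0.726%) and 16477 (54.6%) constant. These are counts over peak calls and carry no test. Regions with a peak in all libraries of 1 genotype and a single library of the other showed the same distal order (1740 with 3 F/F and 1 FC/FC libraries, 1088 in the reverse case) and the same proximal order (348 and 897). The distal order held when peaks were limited to the same number per library (542 lost, 317 gained), to a score of at least 100 (502 and 156), to peaks that cover at least 50% of a region (826 and 353) and with 2 kb in place of 5 kb (840 and 296). The proximal order held under the same 4 settings (123 lost and 377 gained, 91 and 329, 179 and 318, 66 and 195), but without F/F replicate 2 it turned, with 485 proximal regions lost and 342 gained.

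**Figure D1:**
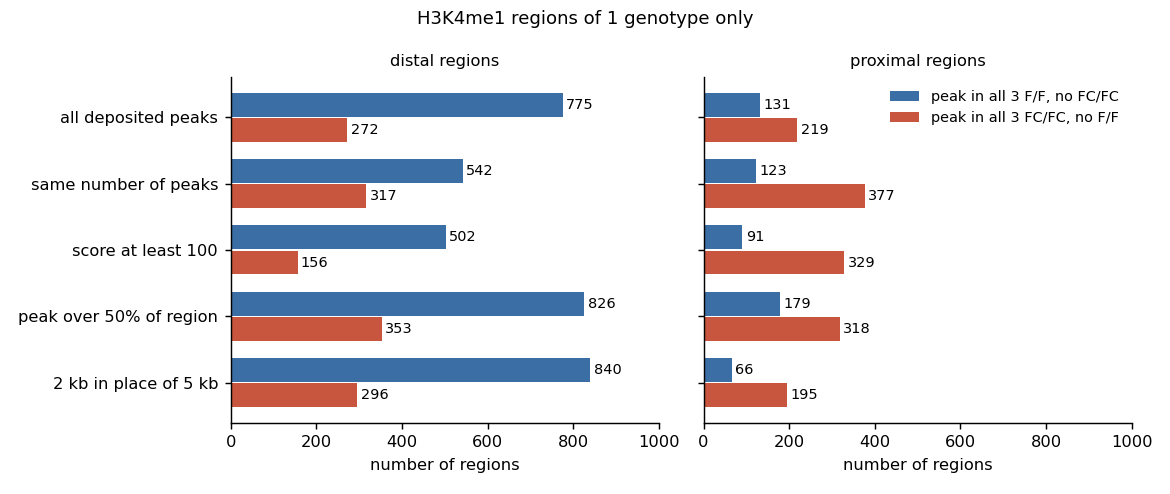
Number of H3K4me1 regions (x axis) with a peak in all 3 libraries of 1 genotype and in none of the other, for distal (left) and proximal (right) regions, under the main calls and 4 other settings (y axis). Lost regions outnumber gained ones at distal sites, 775 to 272 in the main calls, and gained outnumber lost ones at proximal sites, 219 to 131, in every setting drawn.

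The libraries themselves differed in how many peaks were called. F/F replicates 1, 2 and 3 had 120657, 81443 and 101055 H3K4me1 peaks, and the FC/FC libraries had 101154, 90628 and 89026. The genotypes overlapped, at 101052 ± 19607 (SD, n = 3) against 93603 ± 6589 peaks (exact two-sided permutation p = 0.7, where 3 against 3 cannot give less than 0.1). Neither the median peak width (960, 1693 and 1436 bp against 1277, 1401 and 1608 bp, exact permutation p = 0.9) nor the genome covered (159, 184 and 199 Mb against 172, 168 and 189 Mb, p = 0.8) separated them. The share of peaks that were distal did separate them, at 75.6%, 73.4% and 73.0% in F/F and 72.4%, 71.2% and 71.4% in FC/FC cells. Every FC/FC library had a lower share than every F/F library, with a difference of −2.35 percentage points (74.0% ± 1.397 against 71.7% ± 0.650, SD, n = 3 each, exact permutation p = 0.1, the smallest possible). In bulk chromatin, a mark on fewer cells and less of the mark per cell cannot be told apart.

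Lost distal regions lay nearer to genes and had more G and C than gained ones, by medians given here as a description. Their median distance to the nearest start site was 33289 bp, against 46246 bp for gained and 39169 bp for constant distal regions. Both kinds were narrow, with median widths of 1230 bp for lost and 1108 bp for gained regions, while constant regions had a median of 2526 bp. The median GC content of the 300-base centres was 48.7% in lost, 42.0% in gained and 45% in constant distal regions, and it kept this order with equal peak numbers (49.3%, 41.3% and 45.3%). The peaks of whole libraries leaned the same way, since distal peaks had a median GC content of 46.7%, 45.7% and 45.7% in F/F and 45.7%, 45.3% and 44.7% in FC/FC replicates 1 to 3. The part of this in the lost and gained regions was not tested.

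Motif matches are given for the same centres, on both strands, as descriptions without a test. The E-box CAGCTG occurred in 20.8% of lost, 13.97% of gained and 16.5% of constant distal regions, against 16.9% of all 84063 distal regions, and with equal peak numbers in 23.2%, 13.6% and 16.7%. RUNX matches occurred in 28.6% of lost, 23.9% of gained and 24.1% of constant regions (24.6% of all), and with equal peak numbers in 28.0%, 26.5% and 24.1%, where gained regions came above constant ones. TEAD matches were about as frequent in each, at 24.5%, 23.9% and 21.8% (22.1% of all). The AP-1 motif was found in 15.2% of lost, 26.1% of gained and 18.7% of constant regions (18.4% of all). With equal peak numbers its share in gained regions was 15.1%, below the 18.3% of constant regions, so its place in that order depends on which peaks are counted. ETS (CCGGAA) matches were in 4.00% of lost, 3.68% of gained and 3.07% of constant regions (3.07% of all), and Sp/Klf (GGGCGG) matches in 5.16%, 5.15% and 4.62% (4.57% of all). With equal peak numbers the Sp/Klf shares were 6.27%, 2.21% and 4.62%, so lost and gained regions no longer had a like share.

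The 775 lost distal regions were spread over 709 nearest genes, of which 55 had 2 or more lost regions and 8 had 3 or more. Umps, which encodes an enzyme of pyrimidine synthesis, was nearest to 5 of them, the noncoding 6030471H07Rik to 4. Nearest to 3 each were Fam53b, Gfod1 and the transcription factor gene Maf. The 272 gained regions were nearest to 262 genes, 10 of which had 2 gained regions, among them Has2, which encodes a hyaluronan synthase, and Bambi, which encodes a decoy receptor of the TGF-beta family. The level over the gene itself did not always follow these counts. It is given as RPKM, the reads over the transcript and 500 bp on either side, normalized to length and to the library's sum of reads over transcripts. Umps, with the most lost regions, had 1.74, 1.73 and 1.88 RPKM in F/F and 1.847, 1.996 and 2.034 in FC/FC libraries. The difference was 0.13 ± 0.06 (SE) on the log2(RPKM + 0.1) scale (limma adjusted p = 0.21). Fam53b had 1.73, 1.48 and 1.60 RPKM in F/F and 1.45, 1.25 and 1.25 in FC/FC cells, lower in every FC/FC library (log2 difference −0.27 ± 0.08, adjusted p = 0.10), and Has2 overlapped between the genotypes (log2 difference 0.07 ± 0.08).

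H3K4me2 libraries took no part in choosing these regions. Of the lost distal regions, 8.90%, 5.68% and 9.55% overlapped an H3K4me2 peak in F/F and 3.35%, 3.87% and 3.10% in FC/FC H3K4me2 libraries. Every FC/FC library was below every F/F library (8.04% ± 2.07 against 3.44% ± 0.394, SD, n = 3 each, difference −4.60 points, exact permutation p = 0.1, adjusted over 3 kinds of region 0.15). Constant distal regions were much more often marked, in 74.9%, 73.5% and 80.6% of cases in F/F and 62.9%, 66.9% and 65.6% in FC/FC cells, and were lower in every FC/FC library too (−11.2 points, exact permutation p = 0.1, adjusted 0.15). Gained distal regions overlapped H3K4me2 peaks in 27.6%, 30.9% and 32.0% of cases in F/F and 23.9%, 32.0% and 27.9% in FC/FC cells, where the genotypes overlapped (exact permutation p = 0.7). The lower H3K4me2 share in FC/FC cells was thus seen at constant as well as at lost distal regions. FC/FC replicate 1 of H3K4me2 carries the antibody number of the H3K4me1 libraries in its label, and without it the differences were −4.56 points at lost, −0.18 at gained and −10.1 at constant regions. When regions were chosen without F/F replicate 2 of H3K4me1 the difference at lost regions was −2.71 points. When an H3K4me2 peak had to cover at least 50% of a region, the difference at constant regions was −8.06 points, with the genotypes overlapping (exact permutation p = 0.4).

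Near start sites, most gained H3K4me1 regions carried H3K4me2 and H3K4me3 peaks in both genotypes. H3K4me2 peaks overlapped 94.98%, 94.98% and 96.8% of the 219 gained proximal regions in F/F and 95.4%, 97.3% and 97.3% in FC/FC libraries, and H3K4me3 peaks overlapped means of 83.4% ± 1.47 and 84.9% ± 0.791 (SD, n = 3 each). Lost proximal regions were seldom marked, with H3K4me2 in 23.7%, 22.9% and 24.4% against 20.6% in each FC/FC library, and H3K4me3 in means of 12.98% and 13.5%. Constant proximal regions had H3K4me3 peaks in 73.2% and 72.8% of cases. The centre of 50.2% of gained proximal regions lay within 2.5 kb downstream of a start site and of 37.9% within 2.5 kb upstream, compared with 19.8% and 27.5% of lost and 35.2% and 27.9% of constant ones. The start site itself was covered by 20.1% of gained, 19.8% of lost and 26.0% of constant proximal regions. Examples with the highest scores were Chd1, shown above, and Nabp2, which encodes a single-stranded DNA binding protein and had FC/FC scores of 125, 188 and 321. The highest-scoring lost proximal regions lay in an intron of Cacna1g, a calcium channel gene (F/F scores 296, 244 and 184), and in Tpcn1, an ion channel gene (208, 206 and 250), and neither overlapped an H3K4me2 or H3K4me3 peak.

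**Figure D2:**
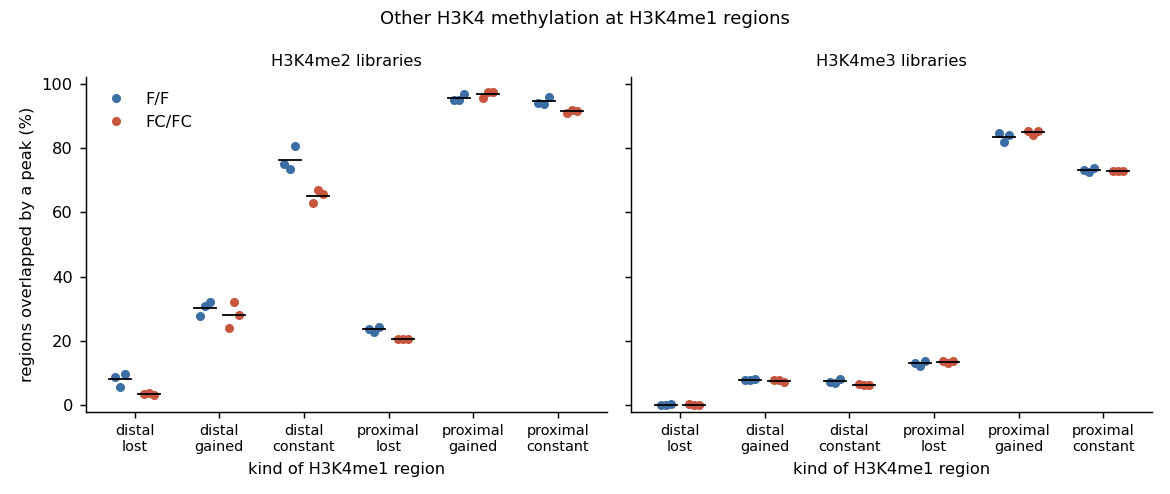
Percent of H3K4me1 regions of each kind (x axis) that overlapped an H3K4me2 peak (left) or an H3K4me3 peak (right), 1 point per library, with lines at the genotype means. Lost distal regions lie at 3.10% to 9.55% for H3K4me2, and gained proximal regions at 94.98% or more.

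Around the start sites of 11545 genes with an H3K4me3 peak over the start in all 6 H3K4me3 libraries, H3K4me1 peaks formed a pair of flanks with a dip between them. At the start site 17.4%, 23.8% and 25.0% of the genes lay in an H3K4me1 peak in F/F and 23.8%, 21.9% and 26.4% in FC/FC replicates (exact permutation p = 0.7, adjusted over 3 positions 0.7). At 2 kb downstream the shares were 39.6%, 48.9% and 51.3% in F/F and 50.2%, 52.9% and 57.6% in FC/FC cells, a difference of 6.96 points (46.6% ± 6.22 against 53.6% ± 3.72, SD, n = 3 each) with the genotypes overlapping (exact permutation p = 0.2, adjusted 0.6). At 2 kb upstream they were 22.5%, 27.2% and 28.9% against 26.7%, 27.8% and 30.42% (p = 0.5 by the same exact test). By library order, which no label gives as pairs, each FC/FC share exceeded its F/F share at both 2 kb positions, not at the start site. F/F replicate 1 was the lowest library at each of these 3 positions, and without it the difference at 2 kb downstream was 3.44 points. At 1 kb downstream, a position noticed after the profile was seen and therefore not tested, 48.4%, 52.6% and 60.8% of the genes lay in a peak in F/F and 62.9%, 62.0% and 67.5% in FC/FC cells, without overlap. The 10490 genes with no H3K4me3 peak showed no dip at the start, with 8.45%, 8.27% and 9.22% of start sites in a peak in F/F and 8.51%, 7.54% and 7.88% in FC/FC cells, above the 5.71% to 7.01% found 2 kb upstream.

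**Figure D3:**
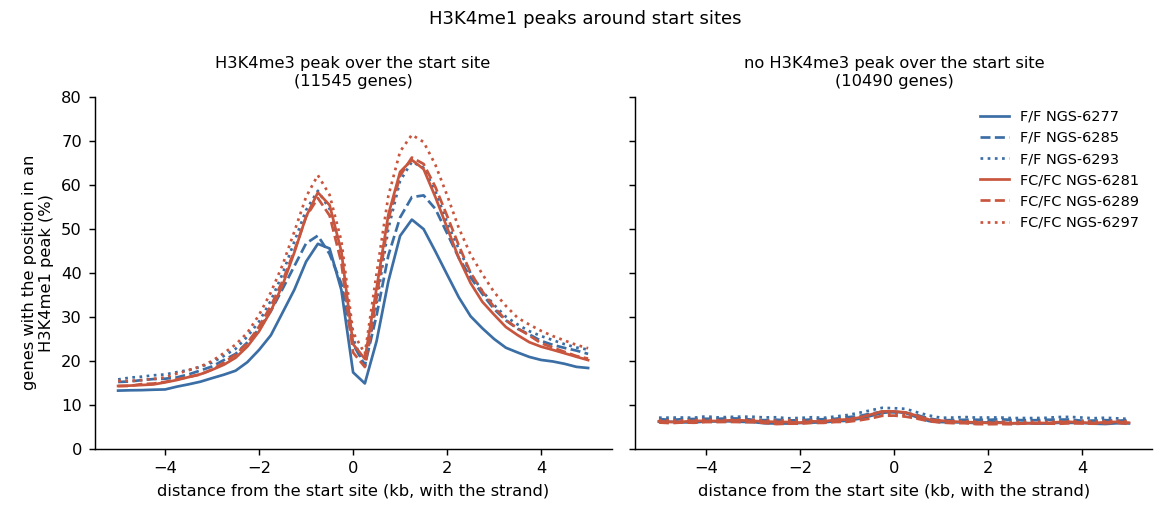
Percent of genes (y axis) whose position lay in an H3K4me1 peak, by distance from the start site in kb (x axis, positive downstream), for genes with (left) and without (right) an H3K4me3 peak over the start, 1 line per library. The flank downstream of the start is highest at 1250 to 1500 bp. At 1 kb the 3 FC/FC lines lie at 62.0% to 67.5% and the F/F lines at 48.4% to 60.8%.

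Over whole genes, differences in H3K4me1 were small. The level was taken as RPKM over the longest transcript of each gene, and 8566 of 23043 genes passed the filter of more than 1 RPKM in at least 3 of the 6 libraries. Because each library was scaled to its own reads over transcripts, a change shared by all genes would not show. By limma on log2(RPKM + 0.1), 0 genes were higher and 0 lower in FC/FC cells at an adjusted p under 0.05 (0.0% each of the genes tested), with a smallest adjusted p of 0.056. At an unadjusted p under 0.05, 857 were higher and 1286 lower. Only 9 genes differed by more than 0.5 on the log2 scale, 3 higher and 6 lower, and none by more than 1. Limma-voom on whole reads recovered from the RPKM called 119 genes higher (1.39%) and 588 lower (6.86%). The genotypes did not overlap for 2614 genes (30.5%), with FC/FC cells higher for 1015 (11.8%) and lower for 1599 (18.7%), and these shares are the background for the counts that follow. The counts and their split depend on the scaling, the estimate of spread and whether libraries are taken as pairs. Quantile normalization called 14 higher (0.163%) and 59 lower (0.689%), centring on library medians 49 (0.572%) and 505 (5.9%). With differences as in the 6-library fit and spread estimated from all 18 libraries, limma called 128 (1.49%) and 150 (1.75%). With a replicate block by library order, which no label gives as pairs, limma called 690 higher and 1108 lower.

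Long genes leaned lower and short genes did not. In the 1322 tested genes of 60 kb and over, the library medians were 1.46, 1.46 and 1.47 RPKM in F/F and 1.409, 1.396 and 1.407 in FC/FC cells. The genotypes did not overlap, and the difference was −0.05 on the log2(RPKM + 0.1) scale (exact permutation p = 0.1, adjusted over 4 length classes 0.2). The 1922 genes of 20 to under 60 kb differed by −0.03 (exact permutation p = 0.1, adjusted 0.2), the 3217 genes of 5 to under 20 kb by 0.02 (p = 0.4) and the 2105 genes under 5 kb by 0.04 (p = 0.2). Among genes of 60 kb and over, 472 (35.7%) were lower in all FC/FC libraries and 53 (4.01%) higher. Among those under 5 kb 186 (8.84%) were lower and 328 (15.6%) higher, beside 18.7% and 11.8% of all tested genes. Without the filter on RPKM the medians of the 2 longest classes turned to 0.04 and 0.03 higher in FC/FC cells. The 6822 genes without an H3K4me1 peak within 500 bp in any library, which measure the floor of the assay, had medians of 0.141, 0.147 and 0.134 RPKM in F/F and 0.174, 0.173 and 0.163 in FC/FC cells, higher in every FC/FC library (exact permutation p = 0.1). Their part in the length classes was not tested.

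**Figure D4:**
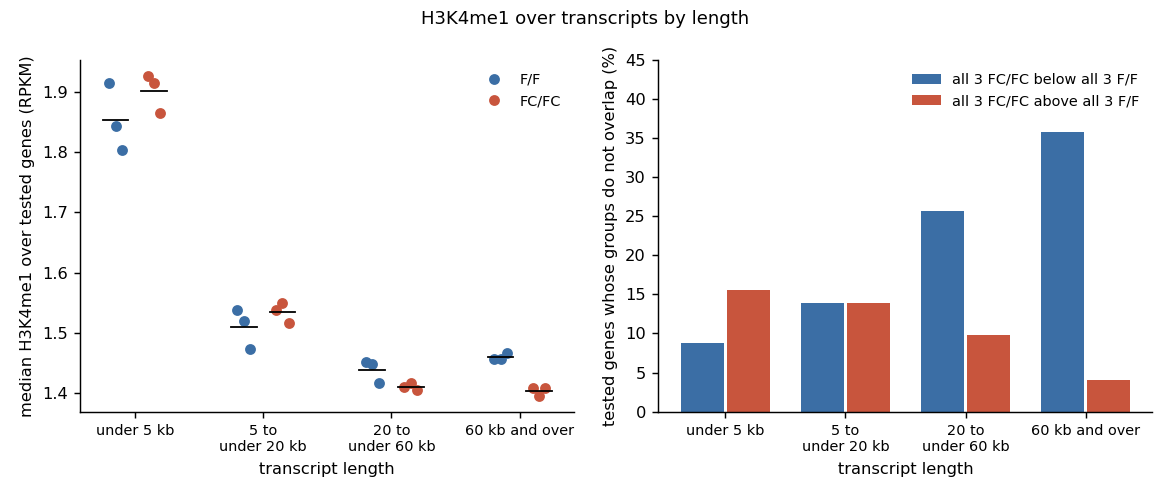
Left, the median H3K4me1 RPKM of the tested genes by transcript length, 1 point per library with lines at the genotype means; right, the percent of tested genes in each length class whose 3 FC/FC libraries all lay below or all above the 3 F/F libraries. At 60 kb and over 35.7% of genes were lower and 4.01% higher, and under 5 kb 8.84% were lower and 15.6% higher.

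None of the 10 genes with the largest non-overlapping differences toward lower H3K4me1 passed the same RPKM filter for H3K4me2 or H3K4me3. Tmem210, a transmembrane protein gene at chr2:25288145-25289187 (mm10), had 3.26, 2.47 and 2.73 RPKM in F/F and 1.80, 1.23 and 1.46 in FC/FC cells, with every FC/FC library below every F/F library (log2 difference −0.88 ± 0.13 SE, limma adjusted p = 0.064, voom adjusted p = 0.0025). Msln, which encodes the cell-surface protein mesothelin, had 2.17, 2.22 and 1.97 RPKM in F/F and 1.33, 1.49 and 1.11 in FC/FC cells, again without overlap (−0.67 ± 0.10, limma adjusted p = 0.064, voom 0.0016). Csf3, the gene for granulocyte colony-stimulating factor, had the smallest limma adjusted p of the 3, 0.056, at 1.29, 1.36 and 1.22 RPKM in F/F and 0.849, 0.795 and 0.876 in FC/FC cells (−0.56 ± 0.06). Psca (−0.72), Ptgds, which encodes a prostaglandin D synthase (−0.68), Gm5111 (−0.60), the olfactory receptor gene Olfr12 (−0.50), the forkhead factor gene Foxl1 (−0.49), 2210404E10Rik (−0.48) and the chemerin receptor gene Cmklr1 (−0.47) complete the 10 largest differences on the log2 scale in that direction. Voom called each of these 10 genes lower. Csf3 and Ptgds were above 1 RPKM in F/F libraries only. They passed the filter through the genotype where they are high, so their p-values are not independent support.

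Of the 10 largest differences toward higher H3K4me1 among genes whose genotypes did not overlap, 5 were at replication-dependent histone genes, and voom called 3 of the 10 (Hist1h3h, Zbtb14 and Chchd1) higher. Hist1h3h had 1.43, 1.45 and 1.85 RPKM in F/F and 2.22, 2.27 and 2.77 in FC/FC cells, without overlap (log2 difference 0.59 ± 0.11 SE, limma adjusted p = 0.066, voom 0.019). Hist1h3b (0.51), Hist1h2ai (0.42), Hist1h4i (0.42) and Hist1h2bh (0.41) were the other histone genes, with voom adjusted p of 0.066, 0.052, 0.084 and 0.059. Since copies of a histone gene are near identical their reads cannot be assigned with certainty. Zbtb14, a zinc-finger transcription factor gene, had 0.782, 0.810 and 0.823 RPKM in F/F and 1.25, 1.01 and 1.14 in FC/FC cells (0.44 ± 0.08, limma adjusted p = 0.065, voom 0.011). It passed the RPKM filter only through FC/FC libraries, where it is high, so its p-values are not independent support. Pnrc1, which encodes a nuclear receptor coactivator, had 1.37, 1.20 and 1.34 RPKM in F/F and 1.71, 1.74 and 1.72 in FC/FC cells (0.38 ± 0.06, voom adjusted p = 0.019). Toporsos (0.45), the mitochondrial protein gene Chchd1 (0.43), 1600023N17Rik (0.42) and the trace amine receptor gene Taar9 (0.42) make up the rest of the 10. The long noncoding RNA gene Tug1 (0.36) was among the 5 largest voom calls, and it too passed the filter only through FC/FC libraries. Chl1, a neural cell adhesion gene named after its values were seen, had a larger difference than any of these (0.63 ± 0.28), but its genotypes overlapped at 0.995, 1.73 and 2.10 RPKM in F/F and 1.65, 2.84 and 3.09 in FC/FC cells (limma adjusted p = 0.20, voom 0.053).

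**Figure D5:**
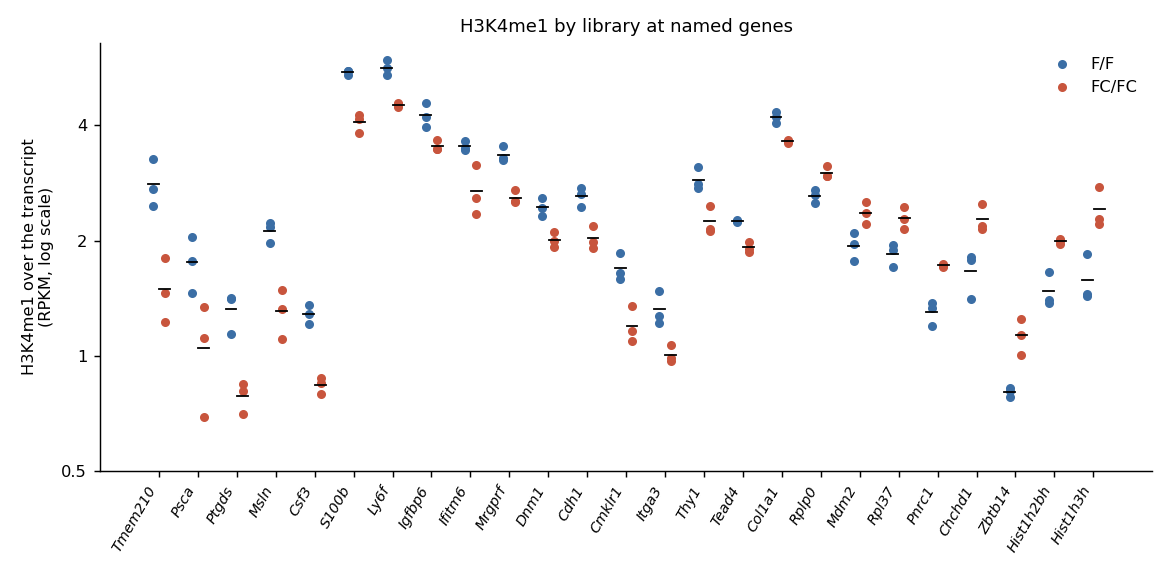
H3K4me1 RPKM (y axis, log2 scale) of named genes (x axis), 3 points per genotype with a line at each mean. Genes from Tmem210 to Col1a1 had all FC/FC points below the F/F points, and those from Rplp0 on had all FC/FC points above them.

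Genes of the fibroblast surface and matrix were more often lower than higher, as were all tested genes (18.7% lower and 11.8% higher in every FC/FC library). The share lower was 25.65% among tested genes of 20 to under 60 kb and 35.7% among those of 60 kb and over. The part of transcript length in the lists below was not tested. Of 14 tested collagens of 18 listed, 6 were lower in every FC/FC library and 0 higher, and voom called 4 of them lower, while limma called none. Col1a1, the main fibrillar collagen gene of fibroblasts, had 4.32, 4.21 and 4.05 RPKM in F/F and 3.65, 3.67 and 3.61 in FC/FC cells, without overlap (log2 difference −0.20 ± 0.05 SE, limma adjusted p = 0.082, voom 0.026). Of 13 matrix proteases and inhibitors 7 were lower in every FC/FC library and 2 higher. Integrins and cadherins had 4 of 9 lower and 0 higher, led by Itga3 (−0.36), and fibroblast growth factors and receptors 6 of 17 lower and 0 higher, with Igfbp6 at −0.26. Among YAP and TEAD targets, genes of the Hippo pathway's transcriptional arm, 7 of 14 were lower and 1, F3, was higher. Tead4, a factor of that arm, had 2.26, 2.25 and 2.23 RPKM in F/F and 1.91, 1.99 and 1.87 in FC/FC cells, below F/F in all libraries (−0.22 ± 0.05, limma adjusted p = 0.074, voom 0.0079). The median log2 differences of these 5 lists were −0.03 (collagens), −0.07 (proteases), −0.08 (integrins and cadherins), −0.08 (growth factors) and −0.08 (YAP and TEAD targets), beside −0.003 over all genes tested. They were negative under each of the 4 other scalings, filters and fits tried. With centring on library medians the median over all genes was negative as well, at −0.0375. Matrix glycoproteins had 5 of 15 lower and 2 higher (median −0.02).

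In the other pathways, genes without overlap lay on both sides or were few, beside 18.7% lower and 11.8% higher among all tested genes. By the share lower, mesenchymal transcription factors (17.6%) and SRF-dependent genes (15.4%) lay near all genes, and Wnt pathway genes (26.7%) above. Of 15 Wnt pathway genes 4 were lower and 1 higher in every FC/FC library, with the ligand gene Wnt10b at −0.36 and Wnt5a at 0.08 on the log2 scale (median of the list −0.05). TGF-beta and BMP pathway genes had 2 of 15 in each direction, the ligand gene Bmp2 at 0.15 and the signal transducer gene Smad3 at −0.17. Among 17 mesenchymal transcription factors 3 were lower and 1 higher, and among 13 SRF-dependent actin and contractile genes 2 were lower and 0 higher (median −0.05). Of 8 AP-1 factor genes 1, Atf3 (−0.15), was lower and 0 higher (median −0.06), and of 8 adipogenic genes 1 was lower and 0 higher (median −0.07). Immediate early genes had 3 of 15 higher, with Klf4 at 0.20, and 1 lower, Zfp36 at −0.23. Of 20 Hox genes 3 were higher, led by Hoxd10 (0.15), and 0 lower. Of 12 interferon response genes 3 were higher, 2 lower, and of 7 imprinted genes 1 was higher and 1 lower. Few members of the remaining lists passed the filter. They were 4 of the genes for H3K4 methyltransferase complexes (0 without overlap), 2 for H3K4 demethylases, of which Kdm5b was higher in every FC/FC library (0.15), 3 myogenic genes, of which Six4 was higher (0.05), and 2 DNA repair genes (0 without overlap).

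Short housekeeping genes stood on the other side, beside 11.8% higher and 18.7% lower among all tested genes. Among tested genes under 5 kb, 15.6% were higher and 8.84% lower. The part of transcript length in the histone and ribosomal lists was not tested. Of 53 tested replication-dependent histone genes 18 were higher in every FC/FC library and 0 lower (median log2 difference 0.21), and of 58 cytosolic ribosomal protein genes 16 were higher and 0 lower (median 0.11). Rplp0, which encodes a protein of the ribosomal stalk, had 2.64, 2.71 and 2.51 RPKM in F/F and 2.96, 3.13 and 2.95 in FC/FC cells, above F/F in all libraries (0.19 ± 0.05 SE, limma adjusted p = 0.092, voom 0.093), and Rpl37 differed by 0.29. Limma called no member of either list, and both medians were positive under every scaling tried. p53 targets had 5 of 15 higher in every FC/FC library (Mdm2, Ccng1, Pmaip1, Fas and Aen) and 0 lower, with a median of 0.05. Mdm2, the gene for the ubiquitin ligase that turns p53 over, had 1.77, 2.09 and 1.96 RPKM in F/F and 2.21, 2.52 and 2.37 in FC/FC cells, without overlap (0.27 ± 0.07, limma adjusted p = 0.090, voom 0.019). Cdkn1a, the best-known p53 target, overlapped between the genotypes at 2.14, 1.86 and 1.82 against 2.18, 1.92 and 1.88 RPKM (0.03 ± 0.08).

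Genes of the Ly6 and S100 families differed in direction within their list. S100b, a calcium-binding protein gene, had 5.54, 5.54 and 5.41 RPKM in F/F and 4.15, 4.27 and 3.82 in FC/FC cells, without overlap (log2 difference −0.42 ± 0.06 SE, limma adjusted p = 0.064, voom 0.0016), while S100a6 was higher in every FC/FC library (0.22 ± 0.07). Ly6f, a GPI-anchored surface protein gene chosen after its values were seen, had 5.65, 5.91 and 5.41 RPKM in F/F and 4.59, 4.54 and 4.47 in FC/FC cells (−0.31 ± 0.05, voom adjusted p = 0.0099), with reads that near-identical Ly6 copies may share. In all 4 of 13 members were lower and 2 higher, against 18.7% and 11.8% of all tested genes. H3K4me2 over S100b and Ly6f was lower as well, by −0.88 and −0.83 on the log2 scale (limma adjusted p = 0.016 and 0.011 in the H3K4me2 fit), which are larger differences than those of H3K4me1 at these genes. The same held for Igfbp6 (H3K4me2 −0.77, adjusted p = 0.016) and the interferon-induced Ifitm6 (H3K4me1 −0.39, H3K4me2 −1.06, adjusted p = 0.041). It also held for Mrgprf, a receptor gene chosen after its values were seen (H3K4me1 −0.36, H3K4me2 −0.82, adjusted p = 0.023). These genes do not stand for H3K4me2 over genes at large. Of 9986 genes tested for H3K4me2, limma called 58 higher and 154 lower, and 7488 had a positive log2 difference (median 0.07). The difference between the marks was not tested.

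Genes that the study lists as lower in RNA in FC/FC cells, a list chosen on RNA of these same cells, were 24 among the tested genes. Of these, 10 were lower and 2 higher in every FC/FC H3K4me1 library, against 18.7% and 11.8% of all genes. Their median log2 difference was −0.08, and voom called 5 of them lower and limma none. Tmem210 and Mrgprf are members, as is Dnm1, a dynamin gene chosen after its values were seen (2.58, 2.43 and 2.32 RPKM in F/F and 2.10, 1.99 and 1.93 in FC/FC cells, −0.27 ± 0.06). Of genes listed as higher in RNA only 6 were tested, of which 3 were higher in every FC/FC library and 1 lower. Among them Rgs4, a regulator of G-protein signalling, had 1.43, 1.34 and 1.45 RPKM in F/F and 1.76, 1.65 and 1.73 in FC/FC cells (0.27 ± 0.05, voom adjusted p = 0.038). The 380 tested genes of the study's list of most damaged genes had 61 higher (16.1%) and 24 lower (6.32%) with a median of 0.04. The study describes these genes as short. Tested genes under 5 kb had near the same shares, 15.6% higher and 8.84% lower, with a median of 0.04. Of single genes the study names, Egr1, an immediate early gene, had 2.49, 2.60 and 2.62 against 2.88, 2.82 and 2.48 RPKM (0.08 ± 0.06, limma adjusted p = 0.47), and Btg2 (0.09), Hist1h1d (0.03) and Malat1 (0.004) also overlapped between the genotypes. Kmt2d itself (0.812, 0.755 and 0.714 against 0.784, 0.818 and 0.758 RPKM) and Recql5 (0.870, 0.772 and 0.733 against 0.854, 0.723 and 0.711) fell short of the filter and were not tested.

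Markers of the labelled cell type carried H3K4me1 in both genotypes. The 15 fibroblast markers summed to 27.5, 28.5 and 29.1 RPKM in F/F and 27.0, 27.7 and 28.5 in FC/FC cells, with 11 to 13 of them above 1 RPKM in each library. Of these, 5 of 12 tested were lower in every FC/FC library and 0 higher, against 18.7% and 11.8% of all tested genes. Thy1, a surface marker of fibroblasts, had 3.11, 2.74 and 2.81 RPKM in F/F and 2.47, 2.12 and 2.15 in FC/FC cells (log2 difference −0.35 ± 0.07 SE, limma adjusted p = 0.070, voom 0.014). Summed epithelial markers were lower in every FC/FC library (7.10 to 7.64 RPKM in F/F, 5.73 to 6.51 in FC/FC), with Cdh1, the gene for E-cadherin, at 2.75, 2.46 and 2.65 against 2.19, 1.92 and 1.99 RPKM (−0.35 ± 0.07, limma adjusted p = 0.066, voom 0.0020). Neural markers were lower too (6.59 to 7.21 against 6.25 to 6.42 RPKM), whereas haematopoietic (7.38 to 8.01 against 7.14 to 7.54) and endothelial markers (5.47 to 5.91 against 5.03 to 5.48) overlapped between the genotypes. No marker of any list was at 0. In all, 1 of 9 epithelial, 3 of 9 haematopoietic, 2 of 8 endothelial and 3 of 8 neural markers passed the filter. The part of these levels in the differences above was not tested.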

How the data were processed

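ChIP-seq libraries of H3K4me1 (3 F/F, 3 FC/FC), H3K4me2 and H3K4me3 were used. Per the labels and the study's methods, base calling by the authors used CASAVA 1.4, and BWA 0.7.10 placed the reads on mm10; the authors extended them to fragment length, and deposited RPKM over RefSeq transcripts widened by 500 bp, and MACS 1.4.2 peaks per library against an H3 library (H3 libraries not used here). The deposited peak score is minus 10 times log10 of the MACS p-value, at least 50. The study's methods drop peaks in blacklisted regions from later steps, and do not say whether this covers the deposited lists.

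From the 28748 transcripts, those under 250 bp were dropped and the longest per symbol was kept (23043 genes). RPKM times length and the library's sum of reads over transcripts gave whole reads within 0.01 for 100% of values. Genes above 1 RPKM in at least 3 of 6 libraries (8566) were fitted on log2(RPKM + 0.1) with limma 3.58.1 (R 4.3.3, trended), Benjamini-Hochberg adjusted at 0.05. A fold on that scale understates changes of low genes. Tested on simulated data for this comparison of 8566 genes, limma recovered 67% of 200 genes changed by 0.3 on the log2 scale and 98% of those changed by 0.5. The simulated noise was independent between libraries and genes. In the real libraries limma called none of the 9 genes that differed by more than 0.5, so these rates are not its power there. Single values per library were compared by exact two-sided permutation (SciPy 1.17.1). p-values measure the spread between these libraries. Start sites and windows used pandas 2.3.3 and pysam 0.24.0 with RefSeq GRCm38.p6, whose transcript ends matched for 76.6% of 27686 transcripts and lay within 1 kb for 96.3%.

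Genes were named by rule: those the study names, the 10 largest non-overlapping differences and the 5 largest voom calls in each direction, per list the top member by p both ways, and the 5 genes with most lost or gained regions, and regions by highest mean score. Some items these rules name are not reported here. The members and lists were chosen with earlier results of these data known. Alternatives were other pseudocounts, filters, scalings, a fit of all 18 libraries, limma-voom, a replicate block, peak thresholds and leaving out each library.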

Additional observations from a re-analysis of the deposited data

How the results depend on the processing

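At an adjusted p under 0.05, limma called 0 genes in either direction also without each library in turn, with other pseudocounts and with no RPKM filter, but 14 higher and 59 lower after quantile normalization, 49 and 505 after centring on library medians, 128 and 150 in 1 fit of all 18 libraries, and 119 and 588 by limma-voom. Chosen after seeing the data, voom with quantile normalization called 75 and 248, voom without F/F replicates 1, 2 and 3 called 51 and 296, 19 and 221, and 84 and 454, and voom without FC/FC replicates 1, 2 and 3 called 367 and 895, 0 and 123, and 5 and 119. No label pairs F/F with FC/FC libraries. With a replicate block by library order limma called 690 higher and 1108 lower, and voom 1327 and 2103 (chosen after seeing the data). As a hint from the data only, deviations from the group means correlated at 0.545, 0.282 and 0.438 between libraries of the same order, and each library correlated best with its own order. Lists with a called member numbered 2 higher and 2 lower with quantile normalization, 3 and 15 with centring, and 4 and 16 by voom.

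The library median over tested genes, −0.002 on the log2 scale, changed sign with no filter (0.03461), with quantile normalization (3.5e-05) and among leave-one-out values (−0.01522 to 0.007386). Among length classes, 5 to under 20 kb gave −0.0124 with centring, and without the filter 20 to under 60 kb gave 0.03712 and 60 kb and over 0.027. The distal regions gained fell to 156 and those lost to 502 at a score of at least 100, where proximal gained ones numbered 329. Proximal gained regions numbered 377 with equal peak numbers, and proximal lost ones 66 with 2 kb. With fewer libraries, more regions meet the definition: leave-one-out values ran from 1209 to 2703 distal lost, 439 to 939 distal gained, 220 to 485 proximal lost and 342 to 780 proximal gained. Without F/F replicate 2, which had the fewest peaks, 2703 distal regions were lost, and without F/F replicate 3, 780 proximal regions were gained.

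Leave-one-out differences in peak number ran from −17250 to 2354, in median width from −135.8 to 230.7 bp, in genome covered from −15.51 to 4.353 Mb and at the start site from −0.3696 to 3.455 points, all changing sign. The H3K4me2 difference at gained distal regions was 0.0 points at a score of at least 100. Of the named genes, Cdkn1a (−0.000126), Hist1h1d (−0.006478) and Malat1 (−0.03039) changed sign with centring and Pagr1a with quantile normalization (0.01297). On leaving out a library, Cdkn1a ranged from −0.02929 to 0.1036, Has2 from −0.00189 to 0.1366, Hist1h1d from −0.05154 to 0.1245, Malat1 from −0.03621 to 0.05124 and Pagr1a from −0.1025 to 0.04578. Where a cause is not given, the cause was not tested. With 3 libraries a genotype the exact tests cannot go below 0.1, and the fixed score minimum of 50 limits which weak peaks are seen.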

Other observations

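On chromosome X, 14 distal regions were lost and 16 gained (0.775% and 0.885% of its distal regions), whereas each autosome had more lost than gained distal regions, with the smallest gap on chromosome 10 (25 and 22) and the largest on chromosome 5 (53 and 10). Of 80 tested genes of chromosome X, 9 (11.2%) were higher and 3 (3.75%) lower in every FC/FC library, against 11.8% and 18.7% of all tested genes, with a median log2 difference of 0.05. These counts were noticed in the data and were not tested.

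Tested genes also differed by level. In the 2142 genes with the highest mean RPKM, 502 (23.4%) were lower and 168 (7.84%) higher in every FC/FC library. In the 2142 with the lowest, 302 (14.1%) were lower and 309 (14.4%) higher, beside 18.7% and 11.8% of all tested genes. The median log2 differences were −0.03 and 0.02. Constant distal regions had an H3K4me3 peak in 7.45% ± 0.615 of cases in F/F and 6.35% ± 0.218 in FC/FC libraries (SD, n = 3 each, exact permutation p = 0.1, lower in every FC/FC library).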
